A study of Homo sapiens with 10 samples.

Results

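The proteasome is the protease that degrades ubiquitin-tagged proteins in the cytosol and nucleus. Its 20S core is a barrel of stacked rings, in which outer alpha rings (PSMA genes) form the gate and inner beta rings (PSMB genes) hold the proteolytic sites. The 19S cap docks on the alpha ring: its base (the PSMC ATPases with PSMD1, PSMD2 and PSMD4) unfolds and threads substrates, and its lid (other PSMD genes) removes ubiquitin through PSMD14. PSMB8, PSMB9 and PSMB10 replace the catalytic PSMB5, PSMB6 and PSMB7 in the immunoproteasome, which shapes peptides for antigen presentation. The PSME genes encode other activators that bind the end of the core.

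The genes were taken by name from the tables of RNA-Seq and Ribo-Seq levels, as rows whose symbol begins with PSMA, PSMB, PSMC, PSMD or PSME followed by a digit. This gave 42 of the 11258 genes listed in both tables. One of them, PSMC3IP, encodes a recombination factor that shares only the start of its name, and it is described apart. The other 41 comprise 7 alpha ring, 7 beta ring, 3 immunoproteasome, 9 base and 8 lid subunits, 3 chaperones of base assembly and 4 PSME activators. The 20S core below is the 14 alpha and beta ring subunits and the 19S cap is the 17 base and lid subunits.

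BJ cells, human foreskin fibroblasts immortalised by hTERT, were treated with nutlin-3a for 2, 4, 6 or 19 h, or left as control. Nutlin-3a keeps MDM2 from p53, its substrate, and so stabilises p53. RNA-Seq of poly(A) RNA and Ribo-Seq, which sequences the mRNA fragments protected by ribosomes after cycloheximide, gave 5 libraries each, with 1 library per time point and assay. All groups share the same line and hTERT, and nothing in the labels gives a second culture.

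As there were no replicates, no difference could be tested, and errors given here cover the counting of reads only. A gene is called changed where its level differed from the control library by more than 1.5-fold (0.585 on the log2 scale), which is a rule of size and not a test. All time points are compared with the same control library, so they share its error. FPKM is relative to the library total, so less RNA in every cell and fewer cells expressing a gene cannot be told apart, nor can a change of all mRNA together be seen. Sequencing runs gave a batch effect per the study's methods, which set each condition against a control of its own run. The study lists a control together with 6 and 19 h, but the labels name neither a run nor that control, so the part of runs in the results was not tested.

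All 8 fibroblast markers were listed, at 55.5 to 4337 FPKM in RNA-Seq, and the markers of epithelial, endothelial and white blood cells that were listed reached at most 0.246 FPKM. CDKN1A, a p53 target, had 68.6 FPKM of RNA in the control and 1316 FPKM at 19 h, and MDM2 had 14.9 and 259 FPKM. The recovered library totals were 23845562 to 27554291 reads for RNA-Seq and 7744899 (at 19 h) to 14460725 reads for Ribo-Seq. Over the 41 genes, the median read number was 2648 in RNA-Seq of the control and 838 in Ribo-Seq at 19 h, with PSMB9 lowest in both (239 and 154 reads). This gave a median counting SE of 0.041 (RNA), 0.059 (ribosome density) and 0.073 (TE) for a log2 change at 19 h. TE, the translational efficiency, is the ratio of the Ribo-Seq to the RNA-Seq level. All 42 genes passed the filter on low values, as did 7015 of the 11258 genes.

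The start of the mRNA is shown here for the alpha ring and base subunits with the lowest TE change at 19 h. Only genes with a single start site in the RefSeq table (GRCh38.p14) were taken. The reason is that ribosomal protein mRNAs, whose median TE change was lower still, are known to begin with a C and a run of pyrimidines. Each window is read on the gene's strand, and capitals mark the transcribed bases from the annotated start.
PSMA1 (chr11:14520367-14520396, minus strand): ccgcagacttCTCTGTAGATCGCTGAGCGA
PSMA2 (chr7:42932155-42932184, minus strand): gctgtgctttGGCTCTTCGGGTAAAGATGG
PSMA3 (chr14:58244833-58244862, plus strand): cgggcctgttACTAGTTTGCGGCATCCTGT
PSMC6 (chr14:52707190-52707219, plus strand): ggcatcccctATGAGAGACGGCTTCTCATC
RPS23, a ribosomal protein gene (chr5:82278335-82278364, minus strand): cggtgcttctCTCTTTCGCTCAGGCCCGTG

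A start of C followed by at least 4 pyrimidines stands in RPS23 and in none of the 4 proteasome genes shown. Of the 41 genes, 36 were in the table, and 1 of them (PSMB5, at 1 of its listed starts) had such a start, or 2.78%. The share was 69.6% of 69 RPL and RPS genes and 5.14% of all 27305 genes in the table. The letters TGACNNNGC, the core of the antioxidant response element that NFE2L1 can bind, stood on either strand of the 300 promoter bases in 13 of the 36 genes (36.1%) and in 16.1% of all genes. A match is a description of letters, and which start sites these cells use was not measured.

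Proteasome RNA levels moved little over the time course. None of the 41 genes passed 1.5-fold at 2 h, when 2.3% of all tested genes did in either direction, and none did at 4 h, when 7.08% did. At 6 h, 31 of 41 lay above the control, as did 3484 of 7015 tested genes. The median log2 change was 0.080, against -0.0024 over all tested genes. The 960 tested genes of 879 to 1483 nt, the alpha ring's length range, had a median of 0.078. Only PSMD10 was called higher there, beside 5.74% of all genes. At 19 h the median was -0.20 against -0.067 over all genes, and 5 of 41 lay above the control, against 3002 of 7015 tested genes. There, 2 of 41 were called lower (PSMC3 and PSMD9) beside 14.6% of all genes. Of the 41 genes, 28 had their highest RNA level in the library of 6 h and 29 their lowest in that of 19 h. The same was not counted over all genes. With the library of 2 h as the baseline, no gene of the 41 was called lower in RNA at 19 h, beside 14.9% of all genes.

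Ribosome density, the Ribo-Seq level per length of transcript, was lower than in the control for most subunits late in the time course. No subunit was called lower at 2 h (2.72% of all genes) or at 4 h (3.26%), 5 of 41 were at 6 h (19.0%) and 17 of 41 were at 19 h (29.8%). The 17 were 7 of 7 alpha ring, 2 of 7 beta ring, 1 of 3 immunoproteasome, 2 of 9 base and 4 of 8 lid subunits, 1 of 3 chaperones and none of the 4 PSME activators. The median change at 19 h was -1.002 for the alpha ring, -0.37 for the beta ring, -0.35 for the base, -0.61 for the lid and -0.28 for the PSME activators, against -0.19 over all tested genes. In 37 of the 41 genes the library of 19 h held the lowest density. This was not counted over all genes, of which 4217 of 7015 lay below the control in density at 19 h. After centring on the median of all tested genes, 10 of 41 were called lower at 19 h, beside 22.1% of all genes.

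**Figure D1:**
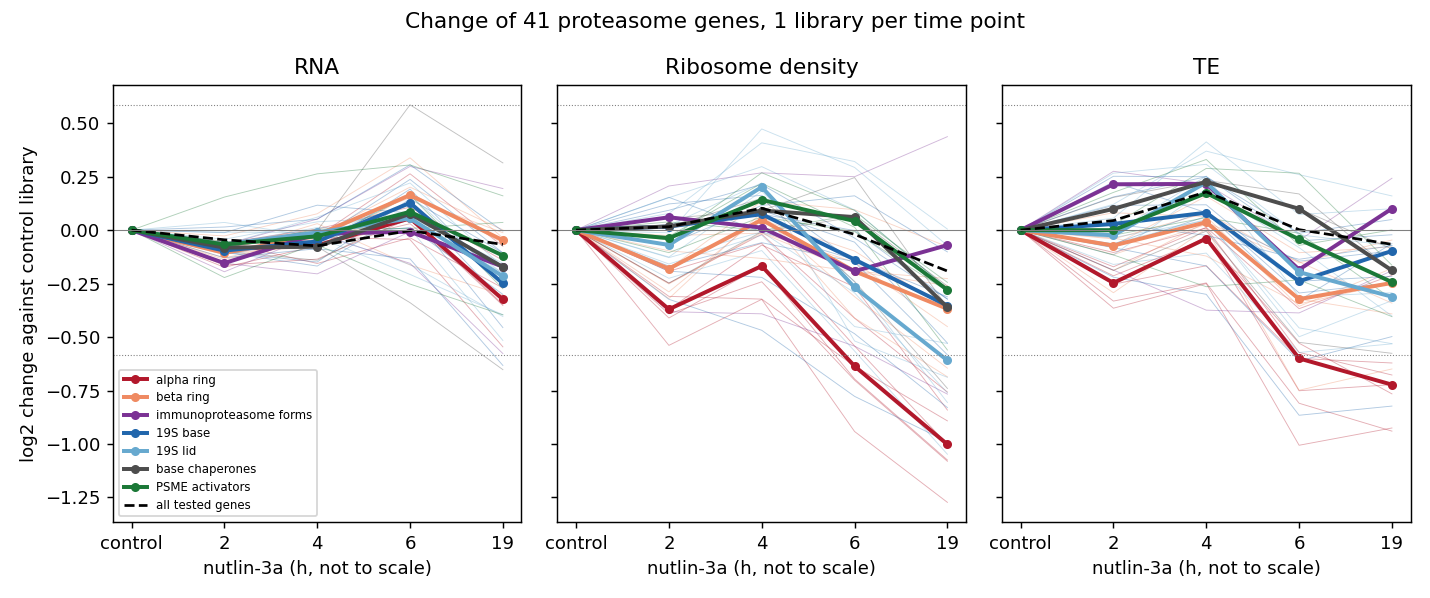
Log2 change against the control library (y axis) of RNA, ribosome density and TE at each time point (x axis, not to scale), with a thin line for each of the 41 genes, thick lines for class medians, a dashed line for the median of all tested genes and dotted lines at 1.5-fold. The alpha ring median lies lowest in density and TE at every time point and reaches -1.002 in density at 19 h.

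The median change in TE was lowest in the alpha ring, as was that in density. No subunit was called lower in TE at 2 h (1.78% of all genes) or 4 h (0.713%), 7 of 41 were at 6 h (12.3%) and 8 of 41 at 19 h (15.6%), and none was called higher at 19 h (9.0%). The share of all 41 subunits was thus near that of all genes, and 6 of the 8 at 19 h were alpha ring subunits, with PSMB7 of the beta ring and PSMC6 of the base. The median TE change of the 20S core was -0.45 at 6 h and -0.51 at 19 h, that of the 19S cap was -0.24 and -0.22, and that of the PSME activators was -0.043 and -0.24, against 0.0021 and -0.067 over all tested genes. The 80 tested RPL and RPS genes had a median TE change of -1.29 at 19 h, and 76 of them were called lower. With the library of 2 h as the baseline, 2 of 41 were called lower in TE at 19 h, 1 in the alpha ring and 1 in the 19S cap, beside 10.2% of all genes.

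The alpha ring and the beta ring, which meet in every 20S core, differed in ribosome density. The summed Ribo-Seq FPKM of the 7 alpha subunits was 0.776 times that of the 7 beta subunits in the control (95% counting interval 0.761 to 0.792), then 0.711, 0.689 and 0.593 in the libraries of 2, 4 and 6 h, and 0.527 (0.511 to 0.544) after 19 h. In RNA the same ratio was 0.935, 0.927, 0.895, 0.854 and 0.787 in that order. Both ratios were highest in the control and lowest at 19 h, and the intervals of control and 19 h do not overlap in either assay. A ratio within a library does not depend on library size. The Ribo-Seq ratio at 19 h was 0.679 times that of the control, and between 0.647 and 0.709 times with any single ring subunit left out. The alpha ring stood at 0.808 of the 19S cap in Ribo-Seq in the control. At 2, 4, 6 and 19 h it stood at 0.654, 0.659, 0.5775 and 0.564. In RNA it stood at 0.584 in the control and 0.569 at 19 h. The beta ring over the cap was 1.04, 0.920, 0.956, 0.973 and 1.07 in Ribo-Seq over the time course. In RNA it was 0.624 in the control and 0.724 at 19 h. The 20S core over the cap was 1.848, 1.574, 1.615, 1.551 and 1.634 in Ribo-Seq. In RNA it was 1.208 in the control and 1.293 at 19 h.

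**Figure D2:**
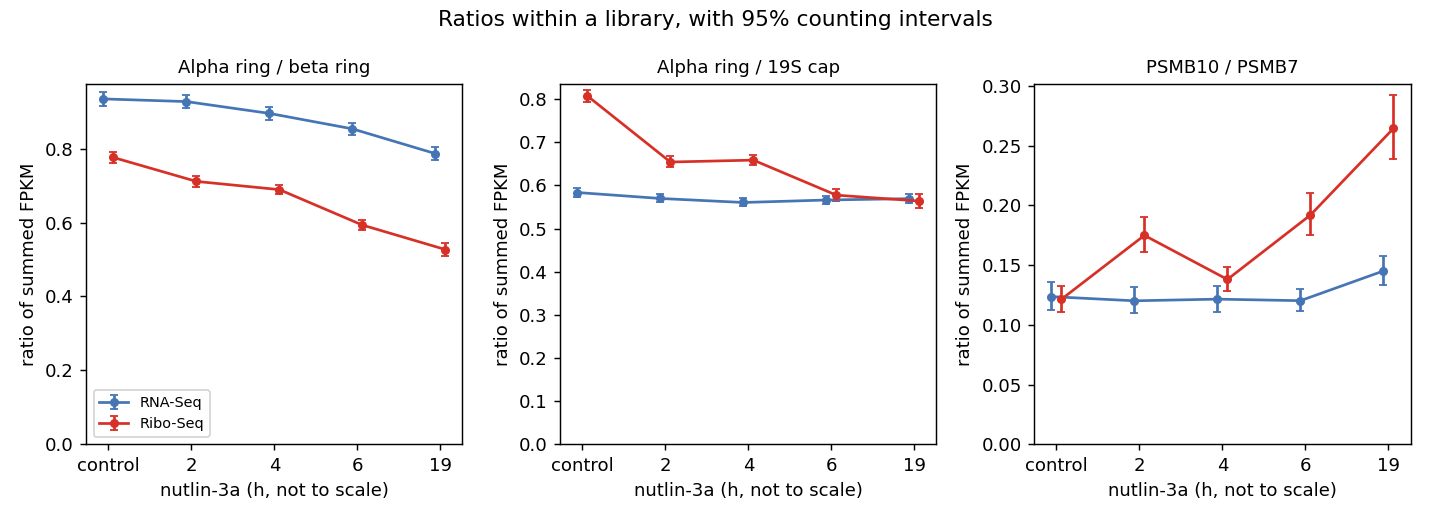
Ratios of summed FPKM within a library (y axis, from 0) for alpha over beta ring, alpha ring over 19S cap, and PSMB10 over PSMB7, by time of nutlin-3a (x axis, not to scale), in RNA-Seq and Ribo-Seq, with bars for 95% counting intervals. The Ribo-Seq alpha over beta ratio goes from 0.776 to 0.527, and PSMB10 over PSMB7 from 0.121 to 0.264.

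The difference between the rings was present before the late time points. At 2 h all 14 subunits of the 20S core lay below the control in density, with a median log2 change of -0.37 for the alpha ring (range -0.54 to -0.19) and -0.18 for the beta ring (-0.32 to -0.025). The 19S cap had a median of -0.013 at 2 h, with 8 of its 17 subunits above the control, and the median over all tested genes was 0.016. The 960 genes of the alpha ring's length range had a median of -0.15 at 2 h, and with the length trend removed the alpha ring was at -0.13 and the beta ring on the other side of the control, at 0.063. At 4 h the alpha ring was nearer the control (-0.17, all 7 below it), while the beta ring (0.048), the cap (0.092) and the PSME activators (0.14) were around the median of all genes (0.10). No subunit was past 1.5-fold in density at either time. The alpha ring thus lay below the beta ring in median density at all 4 treated time points, each read against the same control library.

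Within the alpha ring, PSMA1 had the lowest TE change at 19 h among all 41 genes. Its RNA was 65.3, 62.6, 65.5, 70.3 and 59.2 FPKM in the control and at 2, 4, 6 and 19 h, and its Ribo-Seq level was 103, 78.5, 87.1, 63.3 and 48.6 FPKM. RNA therefore stayed within a narrow range while density was lowest in the libraries of 6 and 19 h. The TE change at 19 h was -0.94 ± 0.089 (counting SE). PSMA4 was close to it at -0.93 ± 0.085, with a density change of -1.27, the lowest of any subunit. PSMA2, PSMA3, PSMA5 and PSMA6 had TE changes between -0.77 and -0.62. PSMA7 differed: its TE change was -0.21 ± 0.050 and its RNA change -0.55, so the lower density of PSMA7 (-0.76) went mostly with its RNA. In all 7 alpha subunits, the density was highest in the control library and lowest at 19 h, an order that was not counted over all genes.

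TE changes of the beta ring at 19 h ran from -0.65 to -0.046, against -0.94 to -0.21 in the alpha ring. PSMB3, a structural subunit, had the TE change nearest 0 in the 20S core (-0.046 ± 0.069). Its RNA was 102, 93.1, 99.6, 106 and 81.5 FPKM over the time course, and its Ribo-Seq level 288, 256, 298, 270 and 223 FPKM. Both were lowest at 19 h by a like factor. PSMB1, PSMB2 and PSMB4, the other structural subunits, had TE changes of -0.39, -0.34 and -0.25, and of these PSMB2 was called lower in density (-0.65).

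The 3 catalytic subunits of the standard core diverged. PSMB5, which cuts after hydrophobic residues, had 94.0, 87.3, 89.1, 105 and 91.0 FPKM of RNA and 181, 177, 179, 158 and 154 FPKM of Ribo-Seq. PSMB6, the caspase-like subunit, had 111, 103, 109, 128 and 111 FPKM of RNA and 306, 270, 336, 327 and 290 FPKM of Ribo-Seq. Neither was called changed, with density changes at 19 h of -0.23 ± 0.046 and -0.078 ± 0.042. PSMB7, the trypsin-like subunit, had 144, 141, 152, 182 and 140 FPKM of RNA, and 317, 254, 336, 239 and 197 FPKM of Ribo-Seq. Its density was therefore lowest at 19 h (-0.69 ± 0.044) at an RNA level close to that of the control (-0.037), and its TE change was -0.65 ± 0.056. The 95% counting intervals of these TE changes do not overlap between PSMB7 and either PSMB5 (-0.18 ± 0.059) or PSMB6 (-0.078 ± 0.059).

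Their immunoproteasome counterparts were present at lower levels. PSMB8, the counterpart of PSMB5, had 29.0, 26.0, 25.1, 28.8 and 25.7 FPKM of RNA and 40.2, 41.9, 40.5, 35.2 and 38.3 FPKM of Ribo-Seq. PSMB9, the counterpart of PSMB6, had 12.8, 11.2, 12.7, 11.5 and 8.59 FPKM of RNA and 43.3, 33.2, 33.0, 29.7 and 25.4 FPKM of Ribo-Seq. PSMB9 was lowest at 19 h in both assays, and its density was called lower (-0.77 ± 0.14), while PSMB8 varied without such an order. PSMB10, the counterpart of PSMB7, had 17.8, 16.9, 18.4, 21.8 and 20.3 FPKM of RNA and 38.5, 44.4, 46.4, 45.8 and 52.2 FPKM of Ribo-Seq. PSMB10 was the one gene of the 41 with its highest density at 19 h (0.44 ± 0.089, short of 1.5-fold). PSMB10 over PSMB7 was thus 0.121, 0.175, 0.138, 0.192 and 0.264 in Ribo-Seq, 2.18 times the control at 19 h, against 0.124 and 0.145 at the ends of the course in RNA. PSMB9 over PSMB6 was 0.141 in the control and 0.0877 at 19 h in Ribo-Seq, and PSMB8 over PSMB5 was 0.222 and 0.248, with overlapping intervals. The 3 immunoproteasome exchanges did not share a direction.

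**Figure D3:**
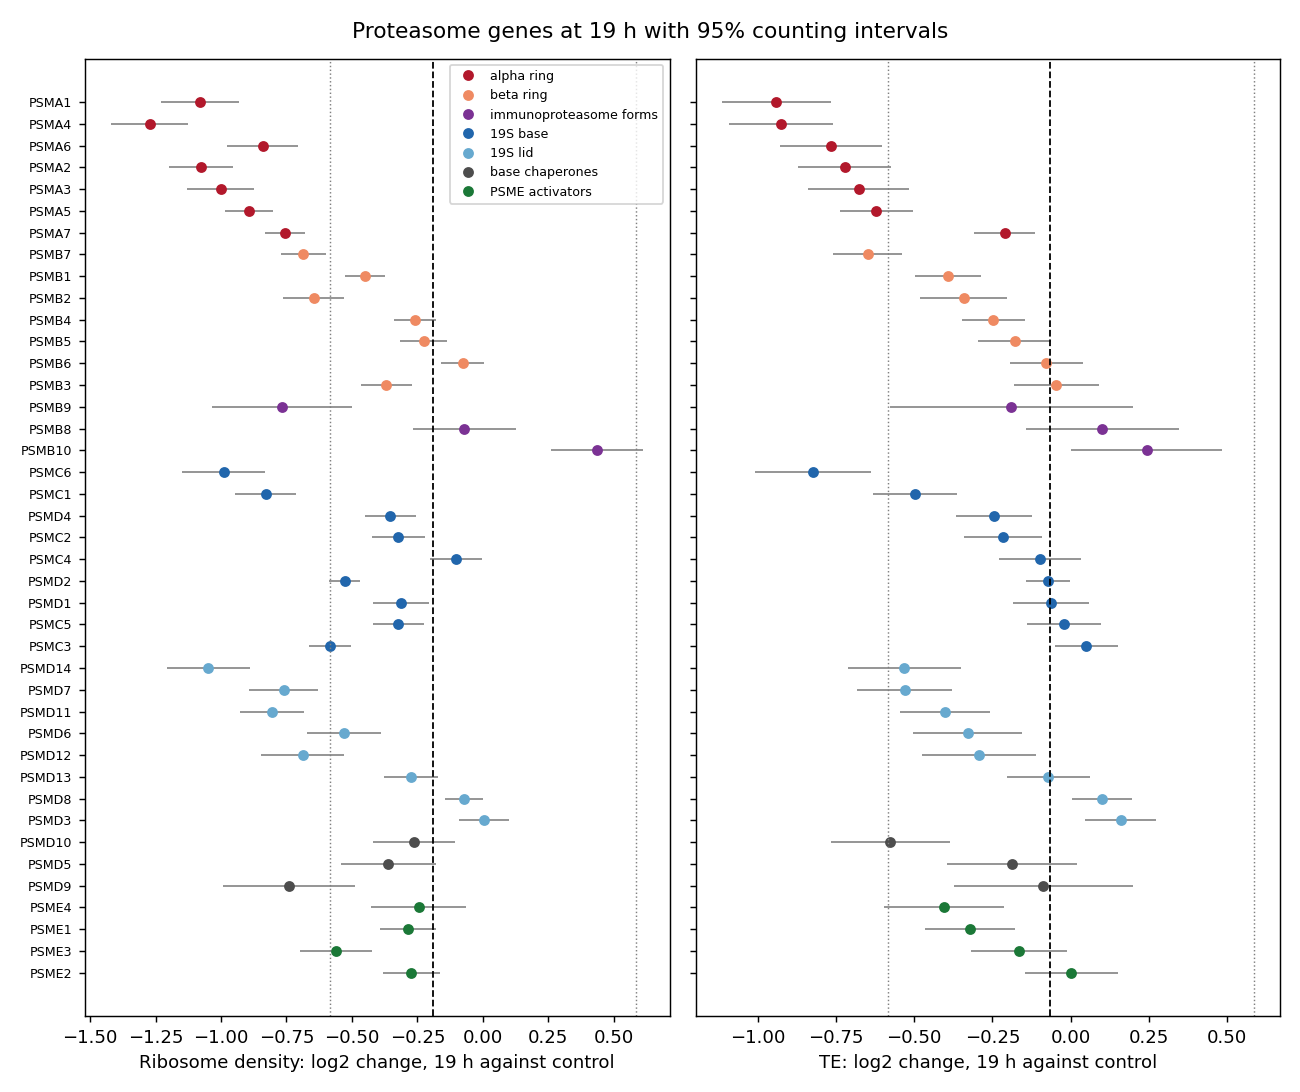
Log2 change at 19 h against the control (x axes) of ribosome density and TE for each of the 41 genes (y axis), coloured by class, with bars for 95% counting intervals, a dashed line for the median of all tested genes and dotted lines at 1.5-fold. Of the 7 alpha ring subunits, 6 lie past 1.5-fold in TE and PSMA7 lies at -0.21.

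In the 19S base, PSMC6 had the lowest TE change at 19 h, followed by PSMC1. These were the 2 base subunits called lower in density at 19 h, at -0.99 ± 0.080 (PSMC6) and -0.83 ± 0.059 (PSMC1). PSMC6 had 33.3, 31.0, 29.6, 35.4 and 29.7 FPKM of RNA and 50.2, 40.1, 36.3, 29.3 and 25.3 FPKM of Ribo-Seq, with a TE change of -0.82 ± 0.094 at 19 h. Its density was lower at each later time point. PSMC3 had the highest TE change of the base (0.050 ± 0.052). Its RNA was 132, 121, 125, 121 and 85.4 FPKM and its Ribo-Seq level 230, 250, 257, 207 and 153 FPKM, so RNA (-0.63 ± 0.032, called lower) and density (-0.58, just short of 1.5-fold) moved by like amounts. The ATPases PSMC1, PSMC2, PSMC4 and PSMC5 had TE changes from -0.50 (PSMC1) to -0.022 (PSMC5). PSMD1 and PSMD2, the scaffold subunits of the base, were at -0.063 and -0.073, and PSMD4, a ubiquitin receptor, was at -0.25.

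In the lid, PSMD14, the deubiquitinating subunit, had the lowest TE change at 19 h (-0.53 ± 0.092), although that of PSMD7, its partner without catalytic activity, was as low within counting error (-0.53 ± 0.078). PSMD14 had 52.5, 50.2, 52.97, 52.8 and 36.7 FPKM of RNA and 57.5, 49.2, 53.8, 38.9 and 27.8 FPKM of Ribo-Seq. It was lowest at 19 h in both assays. PSMD3 had the highest TE change (0.16 ± 0.058), with 85.7, 83.2, 88.1, 89.5 and 77.0 FPKM of RNA and 87.2, 92.0, 116, 109 and 87.5 FPKM of Ribo-Seq. Its density at 19 h was at the control's level, after higher values at 4 and 6 h. PSMD6, PSMD11 and PSMD12 had TE changes of -0.33, -0.40 and -0.29, and PSMD8 and PSMD13 of 0.10 and -0.072. The summed density of the base over that of the lid was 1.72 in the control, 1.46 at 4 h and 1.56 at 19 h. In RNA it was 1.85 in the control and 1.77 at 19 h. The medians had the other order, with density changes at 19 h of -0.35 (base) and -0.61 (lid). PSMD8 held 219 of the lid's 654 FPKM in the control and 209 of 529 FPKM at 19 h.

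Of the chaperones that assemble the base, PSMD10 (gankyrin) was the one member called higher in RNA at any time. It had 33.1, 31.8, 33.0, 49.7 and 41.1 FPKM of RNA and 51.0, 42.9, 50.7, 53.2 and 42.5 FPKM of Ribo-Seq. The higher RNA at 6 h (1.501-fold, at the edge of the call) came with a density close to that of the control, and TE changed by -0.52 at 6 h and by -0.58 ± 0.096 (counting SE) at 19 h. PSMD9 had 16.7, 15.8, 15.8, 13.2 and 10.6 FPKM of RNA and 13.6, 13.7, 15.0, 11.5 and 8.12 FPKM of Ribo-Seq. Its RNA (-0.65 ± 0.068) and density (-0.74 ± 0.13) were both called lower at 19 h, and its TE change was -0.088. PSMD5, the third chaperone, had a TE change of -0.19.

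None of the 4 PSME activators was called changed in RNA, density or TE at any time. At 19 h, 14.6% (RNA), 29.8% (density) and 15.6% (TE) of all genes were called lower, and 7.13%, 15.0% and 9.0% higher. With the length trend removed, 1 of the 4 was called lower in density at 19 h and 1 in TE, the latter beside 15.6% of all genes. The density count is not set against all genes under this setting, so no excess can be read from it. PSME1 and PSME2 form the 11S cap of the immunoproteasome. PSME1 had 60.9, 57.6, 61.1, 61.2 and 62.5 FPKM of RNA and 152, 142, 159, 152 and 125 FPKM of Ribo-Seq. PSME2 had 48.2, 41.4, 46.2, 54.0 and 39.9 FPKM of RNA and 117, 114, 141, 125 and 97.1 FPKM of Ribo-Seq. The RNA of PSME1 spanned a narrower range than that of PSME2, and PSME1 over PSME2 in Ribo-Seq was 1.30 in the control and 1.29 at 19 h. PSME3, a nuclear activator, had 50.7, 48.9, 48.3, 42.6 and 38.5 FPKM of RNA and 36.3, 35.6, 42.3, 36.6 and 24.6 FPKM of Ribo-Seq. PSME4, a large activator known from chromatin and sperm, had 24.2, 27.0, 29.1, 29.9 and 27.1 FPKM of RNA and 8.14, 8.36, 8.13, 8.56 and 6.88 FPKM of Ribo-Seq. PSME3 and PSME4 were lowest in density at 19 h, as were PSME1 and PSME2. PSME1 and PSME2 together were 0.0819 of the summed 20S core in Ribo-Seq in the control and 0.1004 at 19 h.

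The subunits of the complex were far from equal in level. In the control, alpha ring RNA ran from 65.3 (PSMA1) to 211 FPKM (PSMA7) and density from 103 (PSMA1) to 418 FPKM (PSMA7). Beta ring density ran from 62.7 (PSMB2) to 383 FPKM (PSMB1), base density from 50.2 (PSMC6) to 230 FPKM (PSMC3), and lid density from 21.1 (PSMD12) to 219 FPKM (PSMD8). Of 8113 transcripts whose length could be read from each assay's values alone, 87.6% had the same length in both assays. This share measures the agreement of the readings only. Ribo-Seq FPKM was therefore taken to be per length of the whole transcript. A gene with long untranslated regions then has a lower Ribo-Seq level and TE for the same number of ribosomes per codon. Changes over time within a gene do not depend on this length. They can depend on reads outside the coding sequence, if the values count those. For its control, 6 h and 19 h Ribo-Seq libraries of nutlin-3a, the study lists unequal shares of such reads. It also lists a smaller share of reads in frame there than in its other runs. The part of either in the changes was not tested.

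The alpha ring mRNAs were short, with a median of 996 nt (879 to 1483 nt) against 2604 nt over all tested genes, and short transcripts had lower TE changes at 19 h. The 960 tested genes of 879 to 1483 nt had a median TE change of -0.20, and 23.7% of them were called lower. The beta ring was as short (median 964 nt). With a trend on length removed, the median TE change at 19 h was -0.53 for the alpha ring and -0.029 for the beta ring, and 3 of 7 alpha and none of the 7 beta subunits were called lower, beside 15.6% of all genes.

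**Figure D4:**
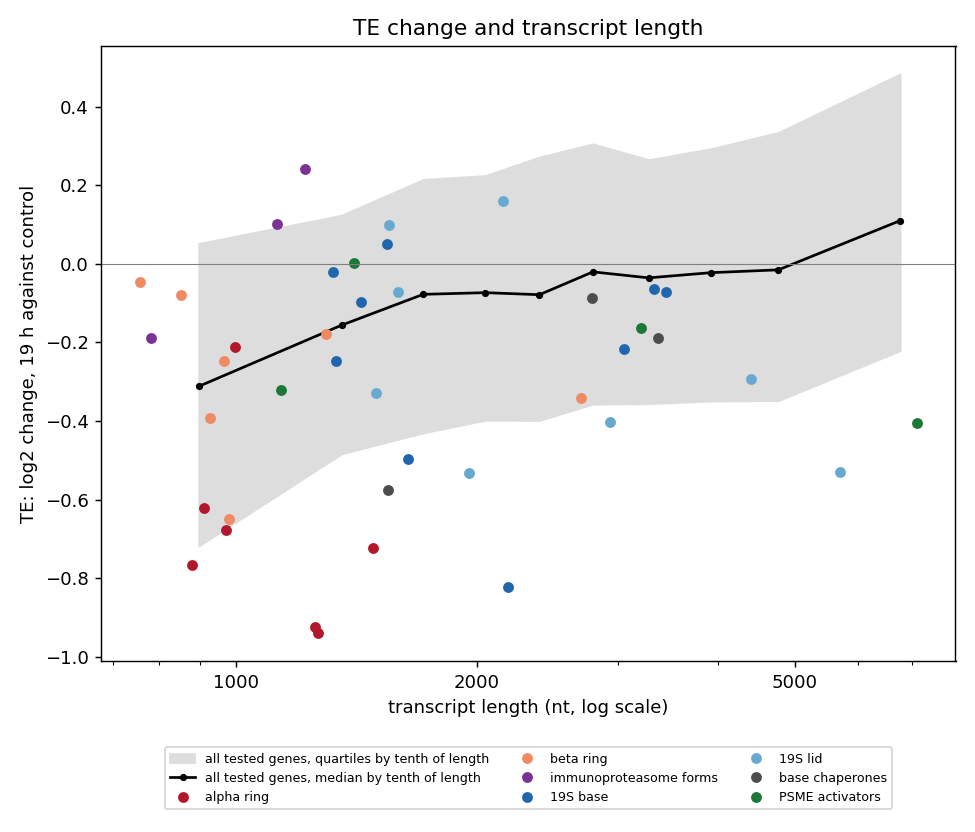
TE change at 19 h (y axis, log2) against transcript length (x axis, nt, log scale) for the 41 genes, coloured by class, over the median and quartiles of all tested genes in 10 bins of length. The alpha and beta rings have like lengths (medians 996 and 964 nt), and the median of the alpha ring lies lower, with PSMA7 (-0.21) above 4 of the 7 beta ring subunits and PSMB7 (-0.65) below PSMA5 (-0.62).

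Of 36 symbols of proteasome partners, which include newer and older names of the same gene, 31 were in both tables and 30 were tested. The others were not analysed here. At 19 h, 6 of 30 were called lower in TE (15.6% of all genes) and 4 higher (9.0%), with a median of -0.073. POMP, the chaperone of beta ring assembly, was at -1.08, and SHFM1, a small lid subunit, at -1.07. PAAF1, a base chaperone, was at -0.68. RPS27A (-1.32) encodes ubiquitin fused to a ribosomal protein, and B2M (-0.62) is the light chain of MHC class I. The 4 called higher were NFE2L1, a transcription factor of proteasome genes (0.70), UBA1, the main ubiquitin-activating enzyme (0.67), PSMG4, a chaperone of 20S assembly (0.60), and TAP2, a peptide transporter subunit (0.59).

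Among the same 30, 11 were called lower in density at 19 h (29.8% of all genes) and 3 higher (15.0%). The 20S assembly chaperones PSMG1 (-1.36), PSMG2 (-1.07) and PSMG3 (-0.96) and the cap deubiquitinase USP14 (-1.04) were among those lower, besides UBQLN4 (-0.64), a shuttle, and NGLY1 (-0.68), a deglycosylase that processes NFE2L1. In RNA, 4 were called lower (PSMG1, PSMG2, PSMG3 and TAP2, beside 14.6% of all genes) and TAP1, a p53 target, was called higher (1.06), beside 7.13% of all genes. The density of TAP1 changed by 1.61, that of NFE2L1 by 0.75 and that of UBA1 by 0.63.

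PSMC3IP, whose product acts in homologous recombination and is no subunit, had 13.6, 10.0, 7.95, 1.80 and 0.879 FPKM of RNA and 16.8, 12.9, 10.98, 1.47 and 0.286 FPKM of Ribo-Seq. It was lower at each later time point in both assays. Its RNA change at 19 h was -3.77 with values floored at 1 FPKM, beyond that of any subunit, whose range was -0.65 to 0.31.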

How the data were processed

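Per the labels and the methods of the study, Bowtie was used by the authors to align reads (build hg19 in the submitters' processing notes) to protein-coding transcripts of Ensembl release 65, 1 isoform per gene, and kept uniquely aligned reads, so reads shared by paralogs were lost. The 2 deposited tables hold FPKM, reads per transcript length and library size, which the authors computed with 3 decimals. The methods take Ribo-Seq reads from the coding sequence, whereas the column names say total. The table named for both assays holds 1 column per time point and was read as RNA-Seq.

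The steps between low values gave back whole reads, library totals and transcript lengths, which were used only for counting errors and lengths. The recovery was tested on simulated tables, where all reads were exact in 92.3% (RNA-Seq) and 97.2% (Ribo-Seq) of the rows sampled. Of 200 simulated 2-fold changes, 100.0% and 99.5% were called. These calls used the simulated FPKM itself, with counting noise only, so they do not test the recovery. They also say nothing of variation between cultures or libraries. FPKM was floored at 1, each library was divided by the control of its own assay on the log2 scale, and TE is the log2 ratio of Ribo-Seq to RNA-Seq. A gene was tested where both its highest RNA-Seq and its highest Ribo-Seq value reached 5 FPKM. With 1 library per group no test was run. Intervals cover 95% of counting error, and PCR copies were not separated.

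Each gene is named once or more. Values per library are given for catalytic and immunoproteasome subunits, PSME activators, the highest and lowest TE change at 19 h in each class, and genes past 1.5-fold in RNA. Members and lists were chosen with earlier results of these data known. A partner gene that enters the partner counts is not reported here. Alternatives covered floor, filter, baseline, centring, length, level and fold. RefSeq start windows are on GRCh38.p14. Python 3.11.15, numpy 2.4.6, pandas 2.3.3 and matplotlib 3.10.9 were used.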

Additional observations from a re-analysis of the deposited data

Results flagged for a closer look

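The RNA of both large assemblies lay on opposite sides of the control at 6 and 19 h. The median log2 change of the 20S core was 0.086 at 6 h and -0.21 at 19 h, and that of the 19S cap was 0.088 and -0.23. The 960 tested genes of the alpha ring's length range had medians of 0.078 and -0.060, on the same sides. The difference between the time points was not tested, and both share the control library. With the level trend removed, the medians at 6 h were -0.031 for the 20S core, on the same side as at 19 h, and 0.0055 for the 19S cap.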

How the results depend on the processing

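Each group holds 1 library, so leaving out a replicate was not possible. No paired analysis was possible because no test was run and each group has a single sample. Of 465 class medians under the alternatives, 35 had another sign than the reported value, 33 of them before 19 h, and no reported median among these was larger than 0.181 in size. The 2 at 19 h were the RNA of the beta ring with the library of 2 h as the baseline (0.048) or centred (0.020), against -0.047. Of the values at 19 h for the alpha ring, 20S core, 19S cap, PSME activators and counts under the alternatives, 91 stayed within counting error, or within 1.5 times for a count, and 35 moved. With the library of 2 h as the baseline, the median RNA change at 19 h was -0.19 (alpha ring), -0.13 (20S core), -0.14 (19S cap) and -0.023 (PSME activators). Density was then -0.66 (alpha ring), -0.42 (20S core) and -0.47 (19S cap), so the core no longer lay below the cap. TE was -0.55, -0.32 and -0.28 in the same order. Under this baseline 0 (RNA) and 2 (TE) subunits were called lower, beside 14.9% and 10.2% of all genes. Centred on all tested genes, density was -0.81 (alpha ring), -0.53 (20S core), -0.34 (19S cap) and -0.088 (PSME activators), with 10 called lower in density and 1 in RNA. With the length trend removed, density was -0.76, -0.55 and -0.40 for the alpha ring, 20S core and 19S cap, and TE was -0.53 and -0.37 for the alpha ring and 20S core. With the level trend removed, RNA was -0.42, -0.29 and -0.30 for the alpha ring, 20S core and 19S cap, density of the 20S core was -0.83, and 4 were called lower in RNA. At a mean of at least 20 FPKM, RNA of the PSME activators was -0.27, density of the 19S cap was -0.35 and 1 was called lower in RNA. With the smaller of the other folds tried, 13 of 41 subunits were called lower in RNA, beside 27.9% of all genes. At that fold, 27 were called lower in density and 17 in TE. With 2-fold the counts were 0 (RNA, beside 7.1% of all genes), 5 (density) and 0 (TE). For density and TE at these folds, the counts are not set against all genes here, so no excess can be read from them. The same holds for the RNA counts when centred, with the level trend removed and at a mean of at least 20 FPKM. Why each value moved was not tested. Leaving out single ring subunits was added after seeing the data.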
